A study of Homo sapiens with 16 samples.

Results

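The MCM genes MCM2, MCM3, MCM4, MCM5, MCM6, MCM7, MCM8, MCM9 and MCM10 encode the replicative helicase and proteins named with it. They were chosen by name, and all 9 were found among the 28710 genes that could be joined between the 2 experiments. All 9 also passed the filter on low counts, with raw counts between 167 (MCM9) and 17040 (MCM3) per library. The cells were U2OS, a human osteosarcoma line. The 4 groups were MDM2 W329G cells treated with 5-FU at 50 µM for 24 h, MDM2 W329G cells given DMSO for 24 h, wild-type (WT) cells treated with 5-FU at 50 µM for 24 h, and WT cells given DMSO for 24 h. MDM2 W329G cells carry a CRISPR/Cas9 edit of MDM2, the ubiquitin ligase that restrains p53. 5-FU (5-fluorouracil) is a pyrimidine analogue that blocks thymidylate synthesis, enters RNA and DNA, and activates p53. Each genotype had 2 lines, labelled cells #1 and #2, and each line was measured in 2 experiments sequenced by different vendors, so each group had 4 libraries and the series 16. Whether a line is a single clone is not given in the labels.

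MCM2 to MCM7 form a ring of 6 different subunits. In G1 the origin recognition complex, CDC6 and CDT1 load the ring onto DNA as an inactive double hexamer. In S phase the kinase CDC7 with DBF4, together with CDK, lets CDC45 and the GINS complex join it, and the resulting CMG helicase unwinds DNA ahead of the fork. MCM10 is needed for the step at which the loaded helicase starts to unwind. MCM8 and MCM9 form a separate helicase that works in homologous recombination and repair of crosslinks. Proliferating cells hold large amounts of MCM2 to MCM7, and transcription of these genes is known to depend on E2F factors and to fall when p53 induces CDKN1A (p21), the inhibitor of cyclin-dependent kinases.

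Total counts ran between 24715999 and 56877328 per library, and the mitochondrial genome gave 7.14% to 31.8% of the joined counts. Values of single libraries are given in the order experiment 1 cells #1 and #2, then experiment 2 cells #1 and #2. The cell numbers appear not to follow the same line across experiments. Across 11347 genes the 2 lines of a genotype differed alike under both treatments of an experiment (r of the differences 0.815 and 0.779 in W329G, 0.780 and 0.685 in WT), but their differences were negatively correlated between experiments (r of -0.646 and -0.730 in W329G, -0.238 and -0.418 in WT). Comparisons of the genotypes rest on counts summed per cell number, and are therefore also given with the numbers exchanged in experiment 2. A point mutation leaves the count of its gene in place, so the count of MDM2 does not check the genotype label. MDM2 had 75.0, 58.1, 65.4 and 102 CPM (counts scaled by library size) in W329G 5-FU, 59.8, 42.7, 71.7 and 117 CPM in W329G DMSO, 201, 192, 286 and 236 CPM in WT 5-FU and 42.6, 47.6, 74.4 and 78.9 CPM in WT DMSO. CDKN1A had 239, 177, 111 and 92.0 CPM in W329G 5-FU, 119.8, 126, 70.8 and 59.3 CPM in W329G DMSO, 845, 1071, 421 and 377 CPM in WT 5-FU and 119.6, 169, 103 and 80.3 CPM in WT DMSO. Both genes were above every DMSO library in each WT 5-FU library, and not so in W329G. Of 8 osteoblast and osteosarcoma markers 6 had a median of at least 1 CPM, with COL1A1 and SPARC the highest and SP7 and BGLAP near 0. None of 5 blood markers, 2 of 4 neural markers and all 5 epithelial markers reached that level, the epithelial ones led by the keratins KRT8 and KRT18.

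E2F factors bind sites with the core letters TTTCCCGC, TTTGGCGC, TTTGCCGC or TTTCGCGC, and these letters were searched on both strands in RefSeq promoters (GRCh38.p14), which span 250 bases before and 50 after a start. Any of them occurred in 3.315% of 35116 promoters. RefSeq promoters were at hand for 7 of the 9 MCM genes, MCM4 and MCM5 being the others, and 5 of the 7 held a match: MCM2, MCM3, MCM6, MCM7 (in the promoter of 1 of its 3 starts) and MCM8. MCM9 and MCM10 held none. The stretches are printed because most of these genes moved together in WT cells, with matches in capitals and the distance counted from the start (the last base before it is -1). A match is a description of letters, not evidence of binding.
MCM6 (chr2:135876514-135876603, minus strand), -160 to -71: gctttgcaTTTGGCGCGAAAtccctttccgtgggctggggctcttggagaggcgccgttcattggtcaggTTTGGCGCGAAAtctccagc
MCM2 (chr3:127598341-127598430, plus strand), -70 to +20: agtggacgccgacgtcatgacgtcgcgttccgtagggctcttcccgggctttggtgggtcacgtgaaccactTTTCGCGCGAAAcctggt
MCM3, distal (chr6:52284862-52284922, minus strand), -180 to -120: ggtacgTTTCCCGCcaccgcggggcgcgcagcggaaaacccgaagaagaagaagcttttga
MCM3, at the start (chr6:52284723-52284782, minus strand), -40 to +20: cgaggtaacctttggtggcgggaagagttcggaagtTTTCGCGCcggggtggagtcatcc
MCM7 (chr7:100101378-100101477, minus strand), -80 to +20: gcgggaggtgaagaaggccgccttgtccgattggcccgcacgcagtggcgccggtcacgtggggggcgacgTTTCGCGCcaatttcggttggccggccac
MCM8 (chr20:5950666-5950690, plus strand), +15 to +39: tggatcactgaaGCGCCAAAaaaga
MCM9 (chr6:118935160-118935249, minus strand), -90 to -1: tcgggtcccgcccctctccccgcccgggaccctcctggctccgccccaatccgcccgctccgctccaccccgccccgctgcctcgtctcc
MCM10 (chr10:13161468-13161557, plus strand), -90 to -1: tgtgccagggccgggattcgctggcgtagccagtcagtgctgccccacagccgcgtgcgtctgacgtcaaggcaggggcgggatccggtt
In MCM6 the same letters stood at -152 to -141 and again at -90 to -79, each reading as TTTGGCGC on one strand and, overlapping it by 4 bases, as TTTCGCGC on the other. In MCM2 TTTCGCGC lay at +3 to +10 and, on the other strand, at +7 to +14. MCM3 held TTTCCCGC at -174 to -167 and TTTCGCGC across the start, at -4 to +4. MCM7 held TTTCGCGC at -9 to -2 and TTTCCCGC on the other strand at -187 to -180, outside the printed stretch. The MCM8 match, TTTGGCGC on the other strand at +27 to +34, lay downstream of the start. The box CCAAT, bound by NF-Y, occurred in 6 of the 7 genes (not in MCM2), against 34.61% of promoters, and shared its first base at -2 with the last base of the E2F match in MCM7. CHR letters (TTTGAA or TTCGAA), found in promoters of genes of late cell cycle, occurred in MCM6 only, against 16.35% of promoters.

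Per exon length, the 6 ring subunits were not at equal levels. The lengths are those of experiment 1, from 3650 bases (MCM3) to 7338 bases (MCM5) in the ring, and were used for experiment 2 too. The order depends on them, and whether the transcripts present had these lengths was not tested. In CPM, MCM5 averaged 204 in WT DMSO, above MCM2 (198), MCM4 (173) and MCM6 (156). In WT DMSO, MCM3 averaged 84.0 ± 4.86 RPKM (CPM divided by exon length in kilobases, with SD, n = 4), MCM7 71.4 ± 17.7 RPKM, MCM2 40.4 ± 9.85 RPKM, MCM6 37.8 ± 3.91 RPKM, MCM5 27.8 ± 5.38 RPKM and MCM4 25.4 ± 12.4 RPKM. MCM10 followed with 13.5 ± 4.45 RPKM and MCM8 with 13.1 ± 5.55 RPKM. MCM9 was lowest in every library, with 0.950 ± 0.259 RPKM. In that order the libraries of MCM7 and MCM2 did not overlap, nor did those of MCM8 and MCM9, while every other pair of neighbours overlapped over the 4 libraries. The order of some changed with the experiment. In WT DMSO, MCM4 averaged 35.9 RPKM in experiment 1, above MCM10 (9.89 RPKM) and MCM8 (8.70 RPKM). In experiment 2 it averaged 14.9 RPKM, below MCM8 (17.5 RPKM) and MCM10 (17.1 RPKM). MCM3 and MCM7 were also the top pair in the other 3 groups, at 70.3 ± 16.7 and 60.5 ± 3.79 RPKM in W329G 5-FU, 77.7 ± 11.3 and 76.2 ± 21.3 RPKM in W329G DMSO, and 35.5 ± 9.09 and 31.5 ± 1.13 RPKM in WT 5-FU. MCM7 was the highest of the ring in all 8 libraries of experiment 1 and MCM3 in all 8 of experiment 2.

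For several members the spread within a group followed the experiment. MCM4 had 2.79 times the mean CPM in experiment 1 that it had in experiment 2, over all 8 libraries of each, while MCM8 had 0.496 times, MCM9 0.659 times and MCM10 0.669 times. MCM6 was level between experiments, at 0.998 times. The experiments were made and sequenced apart and their tables list different gene sets, so the share of counting, library and culture in these ratios was not tested. Each test of the 5-FU response carries a term for experiment.

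**Figure D1:**
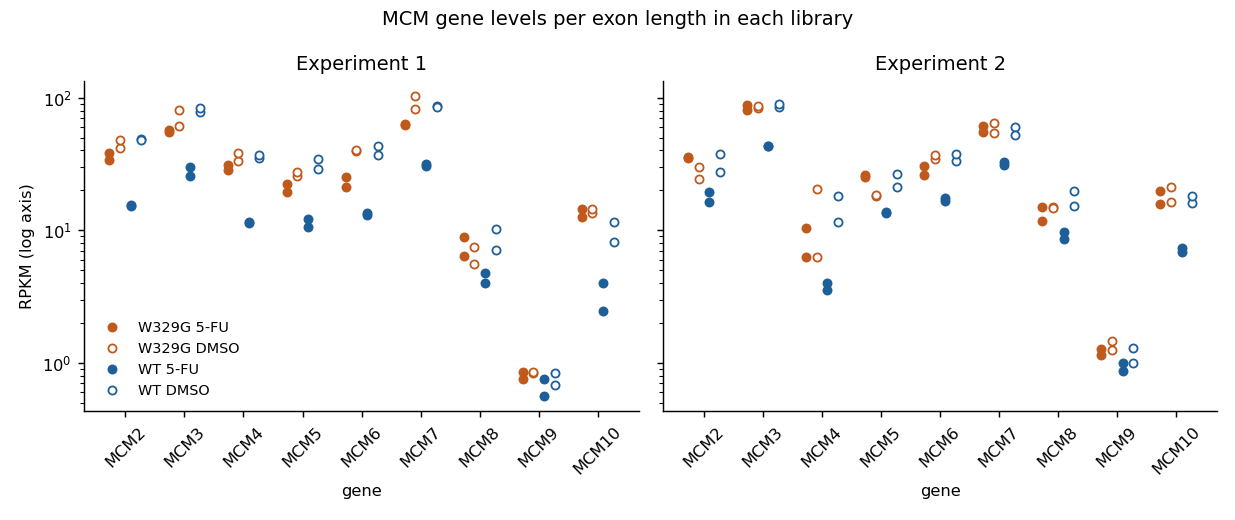
Each point is a library, on the y axis its level in RPKM (log axis), for the 9 genes along the x axis, with experiment 1 left and experiment 2 right and groups by colour and fill. MCM3 and MCM7 lie at the top, MCM9 at the bottom near 1 RPKM, and MCM4 lies lower in experiment 2.

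In WT cells, 5-FU lowered 8 of the 9 MCM genes, all 6 ring subunits with MCM8 and MCM10, by between 1.95-fold (MCM8) and 3.52-fold (MCM4). In W329G cells none of the 9 changed by the same test, and MCM6 came nearest. The summed CPM of MCM2 to MCM7 was 1104 ± 28.3 in W329G 5-FU against 1283 ± 258 in W329G DMSO, and 555 ± 31.4 in WT 5-FU against 1350 ± 234 in WT DMSO (SD, n = 4 libraries each). The sums of the WT 5-FU libraries (527 to 591 CPM) lay below every WT DMSO library (1124 to 1570 CPM), whereas the sums of W329G 5-FU (1077 to 1144 CPM) lay within those of W329G DMSO (1054 to 1610 CPM). By experiment the W329G sums were 1144 and 1077 CPM under 5-FU against 1368 and 1610 CPM under DMSO in experiment 1, and 1095 and 1102 CPM under 5-FU against 1054 and 1101 CPM under DMSO in experiment 2. In W329G the sums were thus apart in experiment 1 and level in experiment 2. In bulk RNA, fewer cells holding a transcript and less of it per cell cannot be told apart.

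Responses were tested with edgeR's quasi-likelihood test on all 16 libraries, adjusted by Benjamini-Hochberg over 16443 genes at a threshold of 0.05. In W329G, 0 of 9 members passed, against 0.785% of all genes tested, with 1 member (MCM6) at an unadjusted p under 0.05. DESeq2 called that 1 gene, where it called 3.47% of all genes tested. So did edgeR with a term for each pair of DMSO and 5-FU libraries of a line in an experiment (adjusted p = 0.0142, against 0.0612 without it), where 10.9% of all genes tested were called. In WT, 8 of 9 fell and 0 rose, against 5.22% of all genes tested that fell. The median log2 fold change of the 9 genes was -0.13 in W329G and -1.24 in WT, where that of all genes tested was 0.02 and 0.01. The WT count was 8 with each WT pair of libraries left out in turn, where 390 to 698 of all genes tested fell. It was also 8 with the pair term, where 13.1% of all genes tested fell. In experiment 1 alone 7 of the 9 passed in WT, against 0.757% of all genes tested. In experiment 2 alone 0 passed, as 0 of all genes did there, while 8 members were at an unadjusted p under 0.05, among 1750 genes in all.

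**Figure D2:**
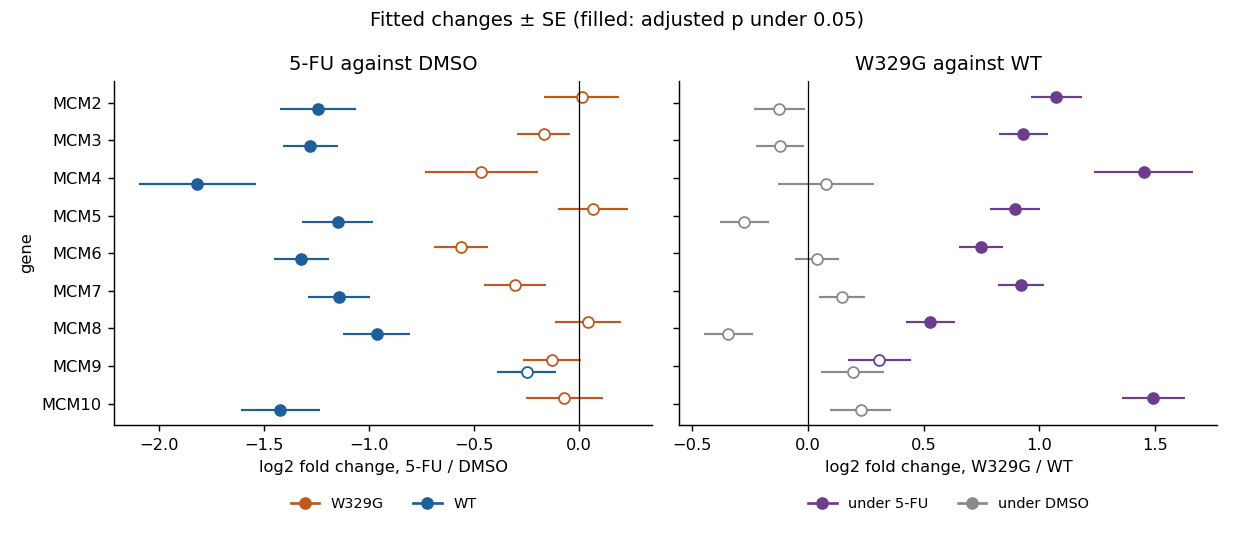
Log2 fold changes with SE (x axis) of the 9 genes (y axis) for 5-FU against DMSO in W329G and WT (left) and for W329G against WT under 5-FU and under DMSO (right), with filled points for an adjusted p under 0.05. WT responses lie between -1.82 and -0.25 and those of W329G between -0.56 and 0.07.

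Among the ring subunits, MCM2 (ENSG00000073111, chr3:127598223-127622436, plus strand) encodes the subunit whose N-terminal tail binds histones H3 and H4. It had 188, 165, 173 and 175 CPM in W329G 5-FU and 205, 237, 148 and 119 CPM in W329G DMSO. In WT it had 76.2, 75.3, 95.4 and 80.1 CPM under 5-FU and 238, 234, 185 and 135 CPM under DMSO. The WT groups did not overlap and the W329G groups did. The log2 fold change was 0.02 ± 0.18 in W329G (SE, adjusted p = 0.987) and -1.24 ± 0.18 in WT (adjusted p = 0.000475).

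MCM5 (ENSG00000100297, chr22:35400063-35425430, plus strand) encodes the subunit that forms, with MCM2, the gate through which the ring opens. It had 164, 143, 184 and 192 CPM in W329G 5-FU and 188, 202, 134 and 134 CPM in W329G DMSO. Under 5-FU the WT libraries had 89.0, 77.5, 100.2 and 98.7 CPM, and under DMSO 251, 214, 195 and 156 CPM. Its profile was close to that of MCM2, with WT groups apart and W329G groups overlapping. The log2 fold change was 0.07 ± 0.17 in W329G (adjusted p = 0.92) and -1.15 ± 0.17 in WT (adjusted p = 0.00052).

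MCM3 (ENSG00000112118, chr6:52264009-52284881, minus strand) had 199.6, 209, 321 and 297 CPM in W329G 5-FU and 223, 293, 303 and 315 CPM in W329G DMSO. For WT the values were 93.3, 109.7, 158 and 158 CPM under 5-FU and 284, 306, 309.9 and 327 CPM under DMSO. Every WT 5-FU library of this subunit was lower than the lowest W329G library of either treatment. Its log2 fold change was -0.17 ± 0.13 in W329G (adjusted p = 0.627) and -1.28 ± 0.13 in WT (adjusted p = 2.1e-05). MCM7 (ENSG00000166508, chr7:100092728-100101940, minus strand) behaved alike in WT, with 139, 133, 145 and 136 CPM under 5-FU against 383, 376, 266 and 228 CPM under DMSO. In W329G it had 275, 277, 268 and 241 CPM under 5-FU and 363, 451, 283 and 239 CPM under DMSO, with overlap between the groups. For MCM7 the log2 fold change was -0.30 ± 0.15 in W329G (adjusted p = 0.399) and -1.14 ± 0.15 in WT (adjusted p = 0.000189).

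MCM6 (ENSG00000076003, chr2:135839626-135876426, minus strand) was the 1 member whose libraries did not overlap in either genotype. It had 105, 87.5, 107 and 126 CPM in W329G 5-FU against 162, 167, 143 and 153 CPM in W329G DMSO. It had 55.2, 53.8, 68.6 and 72.6 CPM in WT 5-FU against 177, 153, 138 and 154 CPM in WT DMSO. The 5-FU libraries of W329G lay between the WT 5-FU and the DMSO libraries. The log2 fold change was -0.56 ± 0.13 in W329G and -1.32 ± 0.13 in WT (adjusted p = 1.8e-05), the W329G value missing the threshold without the pair term as given above.

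MCM4 (ENSG00000104738, chr8:47960185-47978160, plus strand) is a subunit through which CDC7 with DBF4 acts on the ring, and it had the largest WT fold change of the 9. It had 213, 195, 42.7 and 70.9 CPM in W329G 5-FU and 227, 259.7, 43.0 and 141 CPM in W329G DMSO. In WT it had 79.1, 77.5, 24.4 and 27.3 CPM under 5-FU and 237, 252, 79.2 and 124 CPM under DMSO. The libraries of experiment 2 were lower in all 4 groups, and in W329G DMSO those of cells #1 and #2 in that experiment stood far apart. The log2 fold change was -0.46 ± 0.27 in W329G (adjusted p = 0.502) and -1.82 ± 0.28 in WT (adjusted p = 0.000703), with the largest SE of the 9 in both genotypes.

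MCM10 (ENSG00000065328, chr10:13161554-13211104, plus strand) had 78.2, 68.4, 86.1 and 107 CPM in W329G 5-FU and 73.2, 79.2, 89.4 and 115 CPM in W329G DMSO. In WT 5-FU it had 22.0, 13.4, 39.8 and 37.3 CPM, against 63.3, 44.6, 87.9 and 98.4 CPM in WT DMSO. The 4 WT 5-FU libraries were the lowest of all 16. The log2 fold change was -0.07 ± 0.18 in W329G (adjusted p = 0.926) and -1.42 ± 0.19 in WT (adjusted p = 0.000214).

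The recombination helicase genes did not move as a pair. MCM8 (ENSG00000125885, chr20:5950652-5998977, plus strand) had 49.2, 68.6, 116 and 90.6 CPM in W329G 5-FU and 42.5, 57.6, 116 and 112 CPM in W329G DMSO. It had 36.5, 30.9, 74.7 and 65.9 CPM in WT 5-FU and 79.1, 54.8, 117 and 152 CPM in WT DMSO, apart within each experiment and overlapping over both. Its log2 fold change was 0.04 ± 0.16 in W329G (adjusted p = 0.951) and -0.96 ± 0.16 in WT (adjusted p = 0.00137). MCM9 (ENSG00000111877, chr6:118813442-118935162, minus strand) had 9.46, 10.6, 14.2 and 15.9 CPM in W329G 5-FU, 10.4, 10.7, 15.7 and 18.3 CPM in W329G DMSO, 9.40, 6.99, 10.9 and 12.5 CPM in WT 5-FU and 10.4, 8.51, 12.4 and 16.1 CPM in WT DMSO. The 5-FU and DMSO libraries of MCM9 overlapped in both genotypes, also within each experiment. Its log2 fold change was -0.13 ± 0.14 in W329G (adjusted p = 0.757) and -0.25 ± 0.14 in WT (adjusted p = 0.332, and 0.0793 with the pair term). MCM9 contains ASF1A on the opposite strand, which held 3.01 times its counts in experiment 1, so that its value is uncertain if strand was not used in counting.

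Over all libraries, 1 of 9 members (MCM6) lay lower in every 5-FU library than in any DMSO library of W329G, against 2.62% of all genes tested. In WT this held for 7 of 9, all but MCM8 and MCM9, against 4.7% of all genes tested. Within experiments more members were apart. In W329G the 6 ring subunits were lower with 5-FU in experiment 1, against 17.4% of all genes tested. In experiment 2 of W329G MCM6 was lower, against 17.5% of all genes tested, and MCM2 and MCM5 were higher, against 18.9%. In WT 8 of 9 were lower in each experiment, all but MCM9, against 22.4% of all genes tested in experiment 1 and 20.1% in experiment 2.

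**Figure D3:**
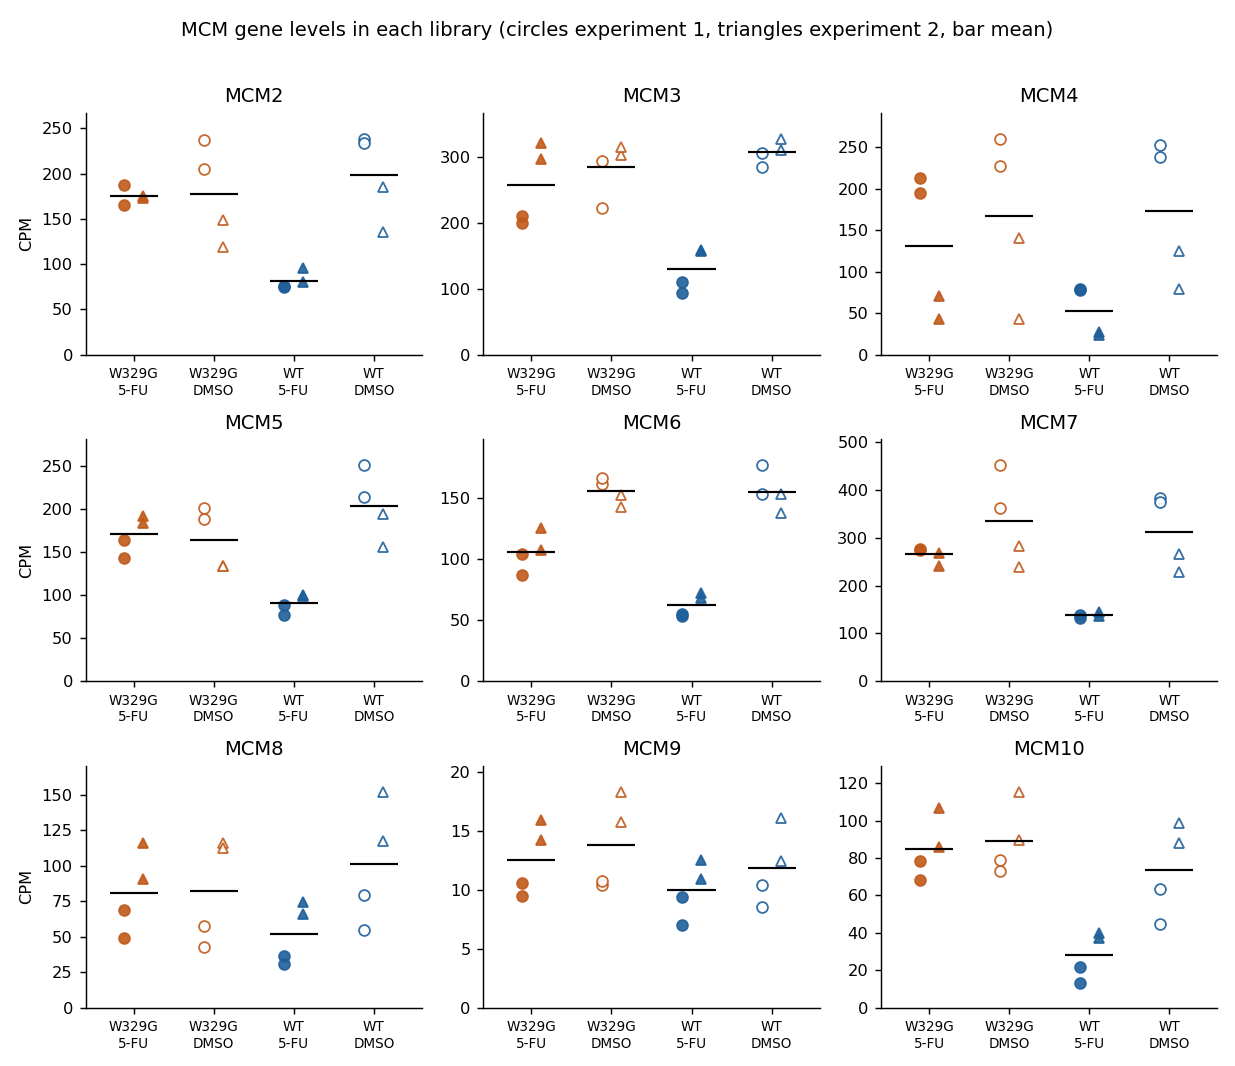
CPM of each gene (y axis, from 0) in the 16 libraries, with the 4 groups along the x axis, circles for experiment 1, triangles for experiment 2, filled for 5-FU, and a bar at the mean. For MCM2, MCM3, MCM5, MCM6, MCM7 and MCM10 every W329G 5-FU library is above every WT 5-FU library.

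The change in each pair of libraries of 1 line in 1 experiment showed how the response varied. Log2 ratios of CPM in WT were negative in 36 of 36 cases, 4 pairs for each gene, where 21.1% of all genes tested were lower in all 4 pairs. In W329G, MCM4, MCM6 and MCM9 were lower in all 4 pairs, as 16.9% of all genes tested were. MCM6 had log2 ratios of -0.63, -0.93, -0.41 and -0.28 in W329G and of -1.68, -1.51, -1.01 and -1.08 in WT. In W329G, MCM2 had -0.13, -0.52, 0.22 and 0.56 and MCM5 -0.20, -0.50, 0.46 and 0.52. Both were therefore lower with 5-FU in the pairs of experiment 1 and higher in those of experiment 2. For WT the same genes gave -1.64, -1.63, -0.96 and -0.76 for MCM2 and -1.50, -1.47, -0.96 and -0.66 for MCM5, with the smaller falls in experiment 2.

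The difference between the experiments was itself tested, in edgeR with a term per pair. For the W329G response it was 0.72 ± 0.18 for MCM2 (log2, experiment 2 minus experiment 1, adjusted p = 0.141) and 0.84 ± 0.17 for MCM5 (adjusted p = 0.102). For the WT response it was 0.78 ± 0.19 for MCM2 (adjusted p = 0.230) and 0.67 ± 0.17 for MCM5 (adjusted p = 0.251). None of the 9 members passed in either genotype, where 0.0608% of all genes tested did for W329G and 0.0547% for WT. MCM8 and MCM10 did not share the order of MCM2 and MCM5 in W329G, with log2 ratios of 0.21, 0.25, -0.01 and -0.31 for MCM8 and 0.10, -0.21, -0.05 and -0.11 for MCM10.

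**Figure D4:**
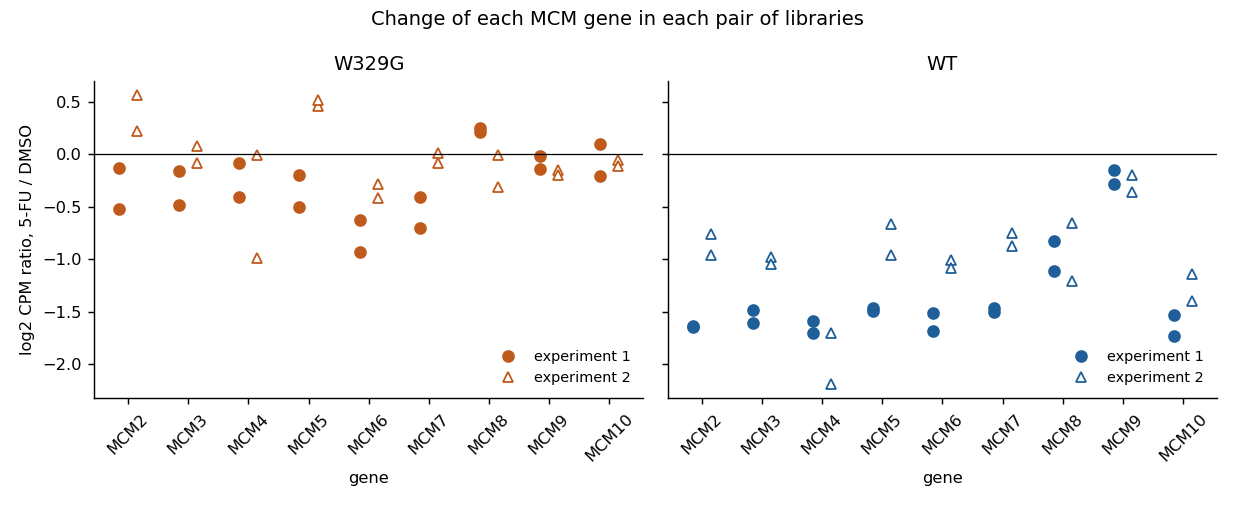
Log2 ratio of CPM, 5-FU over DMSO (y axis), in each pair of libraries for the 9 genes (x axis), W329G left and WT right, circles for experiment 1 and triangles for experiment 2. All WT points lie below 0, and in W329G the points of MCM2 and MCM5 lie below 0 in experiment 1 and above 0 in experiment 2.

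The responses of the genotypes were set against each other directly, as the response in W329G minus that in WT. This fit took the 4 libraries of a group as replicates, though they come from 2 lines. All 9 differences were positive, and 5 passed: MCM10 (1.35 ± 0.26, adjusted p = 0.0159), MCM2 (1.25 ± 0.25, adjusted p = 0.02), MCM5 (1.21 ± 0.24, adjusted p = 0.0166), MCM3 (1.11 ± 0.18, adjusted p = 0.00513) and MCM8 (1.01 ± 0.22, adjusted p = 0.0376). Of all genes tested, 0.693% were called in that direction. MCM4 (1.35 ± 0.38), MCM7 (0.84 ± 0.21) and MCM6 (0.76 ± 0.18) missed the threshold at adjusted p = 0.13, 0.0689 and 0.0583. With a term for each pair these 3 passed too (adjusted p = 0.00115, 0.0239 and 0.0237), which made 8 of 9, against 3.59% of all genes tested. MCM9 differed by 0.12 ± 0.20 (adjusted p = 0.983), and was called in neither fit.

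Without the pair term the count of calls moved when 1 pair of libraries was left out. It was 1 of 9 without the experiment 1 pair of cells #1 of either genotype, 2 without that of WT cells #2, and 3 without that of W329G cells #2. It was 3 without either W329G pair of experiment 2, and 6 and 4 without the WT pairs of cells #1 and #2 of experiment 2. MCM3 was called in each of these 8 fits. Shares of all genes called in these fits are not given here, so a change particular to the members was not tested. The differences themselves stayed between 1.08 and 1.42 for MCM2, 1.00 and 1.21 for MCM3 and 1.17 and 1.55 for MCM10 over the 18 alternatives tried. Within experiments none of the 9 passed, as 0 of all genes did. At an unadjusted p under 0.05 were 8 members among 819 genes in all in experiment 1, and 7 members among 638 genes in experiment 2, and all 9 differences were positive in both.

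Genotypes under the same treatment were compared on counts summed per cell number over both experiments (8 sums, 17491 genes). Where the numbers do not follow a line, a sum holds both lines of its genotype. The spread between sums, on which the p-values rest, is then not that between lines. Under 5-FU, 8 of 9 members were higher in W329G than in WT, against 7.26% of all genes tested. Under DMSO 0 of 9 differed by edgeR or by DESeq2, against 1.42% of all genes tested by edgeR and 7.32% by DESeq2, with MCM5 and MCM8 at an unadjusted p under 0.05. These comparisons share their libraries with the responses above and are no separate evidence.

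Under 5-FU, MCM10 was 2.82-fold higher in W329G (log2 1.49 ± 0.14, adjusted p = 0.000565) and MCM4 2.74-fold (log2 1.45 ± 0.21, adjusted p = 0.0035). MCM2 was 2.11-fold higher (adjusted p = 0.00084), MCM3 1.91-fold (adjusted p = 0.00118), MCM7 1.89-fold (adjusted p = 0.00104), MCM5 1.86-fold (adjusted p = 0.00146) and MCM6 1.68-fold (adjusted p = 0.00186). MCM8 was 1.44-fold higher (adjusted p = 0.0126). MCM9 missed the threshold, at log2 0.31 ± 0.14 (adjusted p = 0.171). In 6 of 9 members every W329G 5-FU library was above every WT 5-FU library, against 6.46% of all genes tested, and within each experiment this held for 9 of 9, against 23.1% of all genes tested in experiment 1 and 24.5% in experiment 2. Under DMSO the log2 differences ran between -0.34 (MCM8, adjusted p = 0.133) and 0.23 (MCM10, adjusted p = 0.39), and in no member were the groups apart over all libraries, where every W329G library was above in 1.59% of all genes tested and below in 1.8%. Within experiments MCM5 was lower in W329G DMSO than in WT DMSO in both, and MCM8 in experiment 2, against 16.9% of all genes tested in experiment 1 and 16.2% in experiment 2. MCM10 was higher in W329G DMSO in experiment 1, against 15.4%.

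With the cell numbers exchanged in experiment 2, 6 of 9 passed under 5-FU, against 0.584% of all genes tested, and 0 of 9 under DMSO, against 0.0115%. MCM6 (adjusted p = 0.0583) and MCM8 (adjusted p = 0.234) were the ones lost, and MCM10 passed at adjusted p = 0.0179. The count under 5-FU was 5 without W329G cells #1 and 4 without W329G cells #2, and 8 without either WT line, where the 1 line left in an arm is assumed to vary like the others. Shares of all genes for the fits without a line are not given here. In experiment 1 alone 7 passed under 5-FU, against 1.36% of all genes tested. In experiment 2 alone 0 of 9 passed, where 30 genes were called in all. There 7 members were at an unadjusted p under 0.05, among 1942 genes in all, with log2 differences of 0.35 to 1.31 over the 9. Under DMSO, leaving out WT cells #2 gave 1 call, MCM5 (-0.38, adjusted p = 0.0487).

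Genes that load the ring onto origins moved with it in part. Of 10 loading genes 0 passed in W329G by edgeR or DESeq2 (1 at an unadjusted p under 0.05, GMNN) and 7 fell in WT, where 5.22% of all genes tested did. With the pair term GMNN fell in W329G (-0.39 ± 0.11, adjusted p = 0.0373). The median log2 fold change was -0.02 in W329G and -0.74 in WT. The loader CDC6 had a value of -0.10 ± 0.17 in W329G (log2, not called) and fell in WT, with -1.46 ± 0.17 (adjusted p = 7.64e-05). In WT the CDT1 inhibitor GMNN (geminin) fell, with -1.28 ± 0.16 (adjusted p = 0.00014), and so did the loading factor CDT1, with -1.16 ± 0.16 (adjusted p = 0.000304). The origin recognition subunits were split. ORC1 (-1.27 ± 0.20), ORC6 (-0.84 ± 0.12) and ORC3 (-0.64 ± 0.17) fell in WT, while ORC2 (-0.08 ± 0.13, adjusted p = 0.786), ORC4 (0.12 ± 0.15, adjusted p = 0.727) and ORC5 (-0.03 ± 0.12, adjusted p = 0.935) were not called. MCMBP, which binds free MCM subunits, had -0.57 ± 0.15 in WT (adjusted p = 0.0284). The response differed between the genotypes in 4 of 10 (CDC6, CDT1, ORC1 and ORC6), each higher in W329G, against 0.693% of all genes tested, and in 6 of 10 with the pair term, against 3.59%.

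Of 17 genes that turn the loaded ring into an active helicase or travel with it, 0 passed in W329G by edgeR or DESeq2 and 0 were at an unadjusted p under 0.05. In WT 14 of 17 fell, against 5.22% of all genes tested, and the median log2 fold change was -0.07 in W329G and -0.88 in WT. GINS2, a subunit of the GINS complex, averaged 54.7 ± 4.67 CPM in W329G 5-FU and 64.4 ± 7.51 CPM in W329G DMSO, and 26.7 ± 4.42 CPM in WT 5-FU and 72.3 ± 5.06 CPM in WT DMSO (SD, n = 4 each). Its WT log2 fold change was -1.44 ± 0.13 (adjusted p = 1.04e-05). CDC45, the other partner in the CMG helicase, had -1.36 ± 0.13 (adjusted p = 1.74e-05) and GINS1 -1.02 ± 0.10 (adjusted p = 1.8e-05). Not called in WT were MTBP (-0.43 ± 0.16, adjusted p = 0.106), RECQL4 (-0.48 ± 0.24, adjusted p = 0.254) and DBF4B (-0.09 ± 0.15, adjusted p = 0.779). With the pair term 16 of 17 fell, MTBP (adjusted p = 0.0282) and RECQL4 (adjusted p = 0.036) included, against 13.1% of all genes tested. With the pair term RECQL4 rose in W329G (0.53 ± 0.14, adjusted p = 0.0332), the 1 call of the list there. The responses differed in 9 of 17, each higher in W329G, against 0.693% of all genes tested, and in 14 with the pair term, against 3.59%. The 4 GINS genes were all among the 9.

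Partners of MCM proteins were the last list, of 7 genes. None passed in W329G by edgeR or DESeq2, or at an unadjusted p under 0.05, and 6 of 7 fell in WT, against 5.22% of all genes tested, with medians of -0.05 in W329G and -0.77 in WT. ASF1B, a histone chaperone, had -1.26 ± 0.20 in WT (adjusted p = 0.000807), and its paralogue ASF1A 0.06 ± 0.17 (adjusted p = 0.89), the 1 not called. MMS22L, which works with TONSL at forks, had -0.74 ± 0.12 (adjusted p = 0.000848). HROB, which acts with MCM8 and MCM9, had -0.90 ± 0.15 (adjusted p = 0.00176), and was the 1 gene of the list whose response differed between genotypes without the pair term (0.97 ± 0.22, adjusted p = 0.039). With that term 5 of 7 differed, against 3.59% of all genes tested. Of the other genes with MCM in their name, the mRNA export gene MCM3AP had -0.01 ± 0.21 in W329G and 0.00 ± 0.21 in WT, and the meiotic gene MCMDC2 stayed under 1 CPM on average in every group. Neither was called in any comparison.

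Under 5-FU, W329G had higher levels than WT in 7 of 10 loading genes, 14 of 17 activation genes and 4 of 7 partners, against 7.26% of all genes tested. Under DMSO no gene of these 3 lists was called by edgeR or DESeq2, with 1, 2 and 2 at an unadjusted p under 0.05. General markers of proliferation were looked at beside them. MKI67 averaged 421 ± 164 CPM in W329G 5-FU and 466 ± 271 CPM in W329G DMSO, against 236 ± 120.2 CPM in WT 5-FU and 383 ± 188 CPM in WT DMSO (SD, n = 4 each). Of MKI67, PCNA and TOP2A, edgeR called 1 in WT, PCNA, the sliding clamp at forks and a target of p53 (-0.51 ± 0.13, adjusted p = 0.0213). DESeq2 called PCNA and TOP2A there, and edgeR with the pair term all 3. In W329G 0 of 3 passed by edgeR or DESeq2, with PCNA (-0.41 ± 0.13) and TOP2A (-0.39 ± 0.13) at an unadjusted p under 0.05. With the pair term PCNA fell there too (-0.40 ± 0.09, adjusted p = 0.0126). Under 5-FU MKI67 was higher in W329G than in WT (0.75 ± 0.16, adjusted p = 0.0172), and under DMSO DESeq2 called PCNA, which edgeR did not (-0.38 ± 0.10, adjusted p = 0.103). The responses did not differ past the threshold for any of the 3 (PCNA 0.10 ± 0.18, TOP2A 0.04 ± 0.19, MKI67 0.69 ± 0.35). The part of cell number and cycle stage in the MCM values was not tested.

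**Figure D5:**
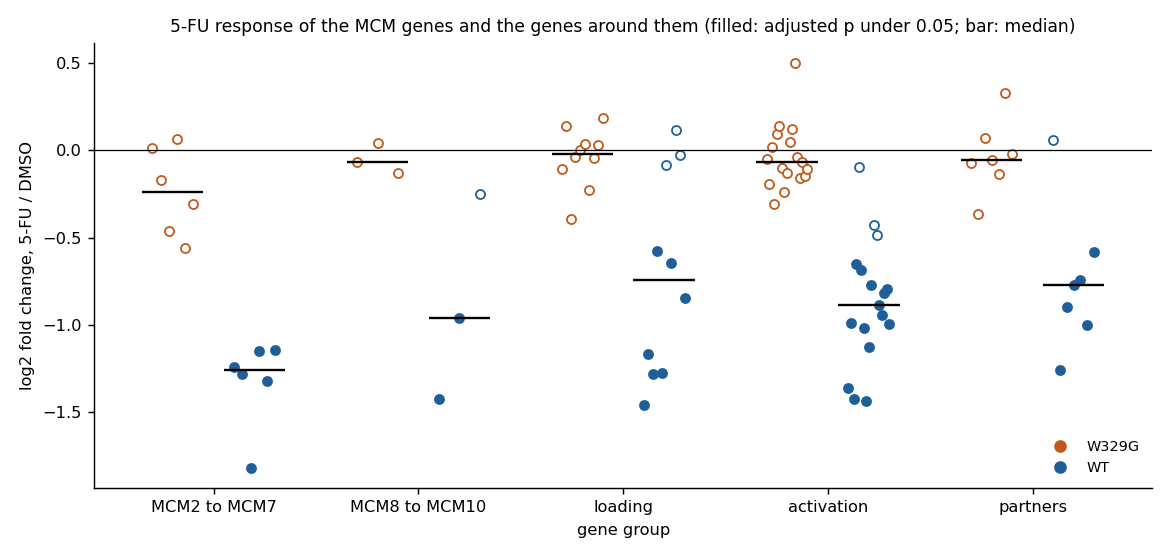
Log2 fold change, 5-FU over DMSO (y axis), of single genes in the MCM family and the 3 lists (x axis), W329G left and WT right within each, filled for an adjusted p under 0.05, with a bar at the median. The medians of the ring subunits are -0.24 in W329G and -1.26 in WT.

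The genes outside the family whose profile was most like the mean of MCM2 to MCM7 were found by the root mean square difference of log2 CPM, centred within experiment, over the 16 libraries and 11347 genes of at least 5 CPM. They were GINS2 (0.0915), the uracil glycosylase UNG (0.109), the chromatin assembly gene CHAF1A (0.115), GINS3 (0.126) and the clamp loader gene RFC2 (0.128). Of the 6 ring subunits, which make up that mean, MCM3 was nearest (0.102) and MCM4 farthest (0.407). The members outside the ring had 0.326 (MCM8), 0.366 (MCM10) and 0.434 (MCM9). Between members, the smallest distances were those of MCM3 with MCM7 (0.136) and MCM2 with MCM5 (0.139), and the largest that of MCM4 with MCM9 (0.655). The measure is a description, and the libraries share depth and batch within an experiment.

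Genes that start beside a member on the opposite strand were looked at for shared movement. PRKDC, the DNA-dependent protein kinase gene, starts 2 bases from MCM4, and TRMT6 starts 94 bases from MCM8. PRKDC averaged 392 ± 59.1 CPM in W329G 5-FU, 373 ± 37.0 CPM in W329G DMSO, 286 ± 40.6 CPM in WT 5-FU and 349.5 ± 32.2 CPM in WT DMSO (SD, n = 4 each). Its WT log2 fold change was -0.29 ± 0.14 (adjusted p = 0.22, and 0.0494 with the pair term), beside -1.82 for MCM4. Under 5-FU PRKDC was higher in W329G, by 0.46 ± 0.12 (adjusted p = 0.0315). TRMT6 had -0.43 ± 0.19 in WT (adjusted p = 0.193, and 0.014 with the pair term). TPRA1, whose start overlaps that of MCM2 by 28 bases, had 0.03 ± 0.22 in WT, and AP4M1, whose start lies 391 bases inside the MCM7 gene, had -0.28 ± 0.14, neither called. These 2 held 0.162 and 0.0829 times the counts of MCM2 and MCM7 in experiment 1. The miRNA genes MIR25, MIR93 and MIR106B lie inside MCM7 on its own strand, and held 247, 25 and 9 counts in all 8 libraries of experiment 1 together, against 71804 for MCM7. Reads of mature miRNAs are not what a poly-A library measures.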

How the data were processed

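Poly-A RNA of 16 libraries was measured with TruSeq kits, per the labels' protocols. The authors deposited raw counts per gene, 1 table per library, and per the file headers those of experiment 1 also hold Ensembl identifiers with exon coordinates and length, while those of experiment 2 hold gene symbols. The submitters' processing notes name hg19, yet of the experiment 1 genes found in GENCODE release 29, 96.3% had its GRCh38 start and end, and coordinates in the text are GRCh38. No aligner, counter or strand setting is given in the sources used here. Experiment 2 holds 26 values of 7 or more digits, each ending in 0 and apparently rounded.

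Experiments were joined by symbol (28443 genes directly, 267 through another symbol), which held 97.91% to 98.91% of each library's counts. Counts were tested with edgeR 4.0.16 (R 4.3.3) with TMM factors, filterByExpr by group and Benjamini-Hochberg adjustment at 0.05, and with DESeq2 1.42.0 as an alternative. The 5-FU responses and their difference used all 16 libraries with a term for experiment, and the genotype comparisons used counts summed per line. SE is the absolute log2 fold change over the root of F, CPM uses TMM-scaled library sizes, and RPKM divides CPM by the exon length of experiment 1 in kilobases. The test was checked on simulated counts that held no effects of experiment, line or pair. That check therefore does not cover its error rates where libraries share a line. DMSO and 5-FU libraries of 1 line in 1 experiment are pairs, since both come from the same line (r between 0.685 and 0.815 for the difference between lines, across genes), and a term per pair is an alternative. No library was counted as a copy of another, since those of a group gave a chi-square of at least 63.9 per degree of freedom within experiments. Separate cultures are not stated, so the spread behind each p-value is that between these libraries, which may be technical.

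Members and lists were chosen with earlier results of these data known. Named genes were all members, MDM2, CDKN1A, the called genes with the 3 smallest p of each list and the uncalled ones, neighbours starting within 1000 bases on the opposite strand, and the 5 non-members nearest to the mean of MCM2 to MCM7. A few more called list members were chosen for naming with their values seen. Other alternatives were DESeq2 size factors, no filter, each experiment alone, no experiment term, sums per cell number or single libraries, and exchanged cell numbers. Mitochondrial genes, each pair and each cell number were also left out. Added after seeing the data were the pair term without mitochondrial genes and the test between experiments.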

Additional observations from a re-analysis of the deposited data

Results flagged for a closer look

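The 5-FU response differed between W329G and WT, by a test of the difference itself, in 5 members. Of all genes tested, 0.693% were called in that direction. The 4 libraries of a group, from 2 lines, served as replicates, and the count of calls changed when single pairs were left out. DESeq2 and edgeR with the pair term also called MCM4, MCM6 and MCM7. For the 5 members the difference (response in W329G minus response in WT, log2) was 1.35 for MCM10, 1.25 for MCM2, 1.21 for MCM5, 1.11 for MCM3 and 1.01 for MCM8. In W329G 3 of 4 pairs were lower with 5-FU for MCM10 and MCM3 and 2 of 4 for MCM2, MCM5 and MCM8, while in WT 4 of 4 pairs were lower for each of these genes. By Dixon's test on the CPM of each member, no library stood apart from the other 3 of its group, over 36 sets of 4 libraries, of which chance is held to flag about 1 in 20. The sets hold both experiments, so differences within an experiment, such as 43.0 and 141 CPM of MCM4 in W329G DMSO of experiment 2, were not tested. CDKN1A and MDM2 rose in WT, where these 5 members fell. Their responses on the log2 scale were 0.70 ± 0.16 (adjusted p = 0.0606) and 0.10 ± 0.19 (adjusted p = 0.882) in W329G, and 2.42 ± 0.17 and 1.95 ± 0.19 in WT. DESeq2 (adjusted p = 0.00295) and edgeR with the pair term (adjusted p = 0.00531) called the rise of CDKN1A in W329G, and the part of either gene in the MCM values was not tested.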

How the results depend on the processing

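Directions held in all alternatives for each member in the WT response, in the difference of responses and under 5-FU between genotypes. The replicate block (a term per pair) left the count of members lowered in WT at 8, and gave 1 in W329G and 8 for the difference, as did DESeq2, and the block without mitochondrial genes gave 1 and 8 too. Of all genes, DESeq2 called 1141 lower in WT and 571 in either direction in W329G. The block without mitochondrial genes called 2026 and 1727. Numbers of all genes called for the difference in these 2 settings are not given here. In the genotype comparisons, where cell numbers do not pair lines, a block by cell number left the counts at 0 under DMSO and 8 under 5-FU. Shares of all genes called with that block are not given here. The difference gave 0 calls in experiment 1 alone, in experiment 2 alone and with no experiment term, and 1 to 6 with single pairs left out. In experiment 2 alone the WT response and the comparison under 5-FU gave 0. Leaving out single lines gave 0 to 1 calls under DMSO and 4 to 8 under 5-FU. The cause of these changes was not tested. With the block 4071 genes were called in the WT response, 1794 in the W329G response and 1009 for the difference, against 1444, 129 and 198 without it.

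Signs turned for values near 0 that were not called. In the W329G response MCM2 (0.02) gave -0.33 in experiment 1 alone, -0.018 with no experiment term and -0.0086 with sums per cell number. With single replicates left out MCM2 gave -0.15 to 0.19 (below 0 without W329G replicate 3 or 4). MCM5 (0.07) gave -0.35 in experiment 1 alone and -0.080 to 0.24 with single replicates left out (below 0 without W329G replicate 3 or 4). MCM8 (0.04) gave -0.16 in experiment 2 alone, -0.019 with no experiment term and -0.015 with sums per cell number. With single replicates left out MCM8 gave -0.048 to 0.16 (below 0 without W329G replicate 2). Under DMSO MCM4 (0.08) gave -0.15 in experiment 2 alone and -0.085 with single libraries. With single lines left out, over both experiments, it gave -0.22 to 0.37 (below 0 without WT cells #1 or W329G cells #2). Each genotype had 2 lines, and the lowest count of a member in a library was 167 (MCM9).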
